A study of Arabidopsis thaliana with 4 samples.

Results

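Glutathione transferases (GSTs) are a large enzyme family that joins the tripeptide glutathione to reactive or toxic molecules, carries out other glutathione-dependent reactions, or binds small molecules without changing them. The Arabidopsis thaliana genes described here were taken from a list of 47 loci, of 29030 loci with a probe on the array. By class they were 28 tau (GSTU), 12 phi (GSTF), 1 zeta (GSTZ) and 3 lambda (GSTL) genes and 3 dehydroascorbate reductase (DHAR) genes. The list is defined by locus with no threshold on a measured value, but it was drawn up with earlier results of these data known. All 47 had at least 1 probe, and 44 were bright enough to be tested. GSTU15, GSTF5 and GSTU21 were not. GSTU3 and GSTU12 passed the brightness filter only through the full-length line, and the other 42 through wild type.

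Tau and phi GSTs are the large plant classes and the ones best known for detoxification. Many of them are known to respond to herbicides, safeners, pathogens, auxin, salicylic acid or oxidative stress, and some take part in the synthesis of camalexin or glucosinolates, which are sulphur-containing defence compounds. Conjugates are pumped into the vacuole by ABCC transporters, and glutathione itself is made by GSH1 and GSH2 and kept reduced by glutathione reductases. The zeta enzyme works in tyrosine breakdown, lambda enzymes reduce glutathione adducts, and DHARs use glutathione to regenerate ascorbate.

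The study compared Col-0 plants that overexpress VuDREB2A, a DREB2-type transcription factor from cowpea, with wild type Col-0. A full-length and a truncated form of the factor were each driven by the 35S promoter, which is active in most tissues, and as far as the labels state each form was represented by 1 line. All plants, wild type included, were whole plants 21 days old, grown without stress treatment on agar plates with 1% sucrose at 25 °C and 12 h of light a day. Each line was set against wild type on 2 arrays with the dyes swapped, so replicate number and dye orientation were the same split. Since the design mentions only 2 wild type replicates for the 4 arrays, both lines may have been set against the same wild type RNA.

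RNA of a whole plant was measured, so fewer cells of a type and less RNA per cell cannot be told apart. Between 65.6% and 72.5% of probes per channel exceeded background clearly, and 0 gene spots were saturated. The number of arrays limits the precision. The level of the cowpea transgene was not measured here. Among 13 tested root markers, the full-length line had 0 higher and 3 lower (TIP2;3, PIP2;4 and CASP1, while 8 had an unadjusted p below 0.05 in limma). The truncated line had 0 higher and 1 lower, MRN1 (4 unadjusted). That was 23.1% and 7.69% called, beside 15.5% and 13.2% of all features. The summed intensity of the tested root markers was 95190 in the line against 88150 in wild type and 105200 against 102100 on the full-length arrays. On the truncated arrays it was 82870 against 92610 and 78840 against 94550. Most of each sum came from PYK10, a root beta-glucosidase gene (67360 against 58310 on the first full-length array). Of 9 leaf markers 1, the photosystem gene PSAG, was lower in each line (11.1% called, beside 15.5% and 13.2% of all features). The other 8 did not pass the threshold in either line, but all 9 means lay below 0 in both lines. Of 44 other probes of these genes, 40 lay below 0 in the full-length line (-0.56 to 0.43) and 34 in the truncated line (-0.39 to 0.27). The summed leaf intensity was 919900 against 1279000 in wild type and 1460000 against 1527000 on the full-length arrays, and 1013000 against 1314000 and 1211000 against 1184000 on the truncated arrays. Several bright leaf probes swung with dye orientation, as for RBCS1A, which had log2 ratios of -0.71 and 0.36 on the full-length arrays. Among 5 floral markers 2 were detected: PI was higher in the truncated line, and SEP3 higher in the full-length and lower in the truncated line. AG, AP3 and AP1, which mark floral organs or floral meristems, did not pass the brightness filter. Of 4 seed markers only CRA1 was tested, and it passed the threshold in neither line. The part of tissue makeup in the results below was not tested.

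All values below are log2 ratios of line over wild type, written as mean ± SD (n = 2 arrays for each line). P-values come from limma, fitted over all 22438 tested features and Benjamini-Hochberg adjusted, with a threshold of 0.05. "Higher", "lower", "rose" and "fell" are used for genes past it, and a p-value measures only the spread between these arrays. Where several probes represent a gene, the brightest was used.

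GST genes moved in both directions in both lines. Of the 44 tested members, 12 rose (GSTU12, tested only through this line, included) and 8 fell in the full-length line, and 24 did not pass the threshold. That was 45.5% called, beside 15.5% of all features (9.41% higher and 6.14% lower). For the truncated line the numbers were 6 risen, 8 fallen and 30 not past it, which was 31.8% called beside 13.2% of all features (7.09% higher and 6.15% lower). The median log2 ratio of the members was 0.13 for the full-length and -0.03 for the truncated line, beside 0.01 and 0.00 over all features. The median size of the log2 ratio, regardless of sign, was 0.24 and 0.18 among members and 0.13 and 0.12 over all features. Members that are neighbours or near copies may share signal, so they are not independent of each other.

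The counts depended on single arrays and on the processing. A fit without 1 array leaves 1 array in that line and takes its spread from the other line. Without full-length replicate 1, 9 members were called in that line, and without replicate 2 also 9. The calls that held without either array were those of GSTU4, GSTU26, GSTF2, GSTF6 and GSTF7, and that of GSTU12. GSTU12 was tested only because it was bright in this line, so its call adds no support. For the truncated line, 9 members were called without replicate 1 and 10 without replicate 2, and 8 of the 14 calls held without either (GSTU5, GSTU17, GSTU26, GSTF2, GSTF6, GSTF14, GSTL1 and DHAR1). When arrays were centred on their median in place of loess, which follows the dye bias along intensity, 0 members were called in the full-length line (10 with an unadjusted p below 0.05 in limma) and only GSTL1 in the truncated line (4 unadjusted). With outlier-marked spots kept 7 were called in the full-length line, and without the filter on dim probes 6 were called there and 7 in the truncated line.

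**Figure D1:**
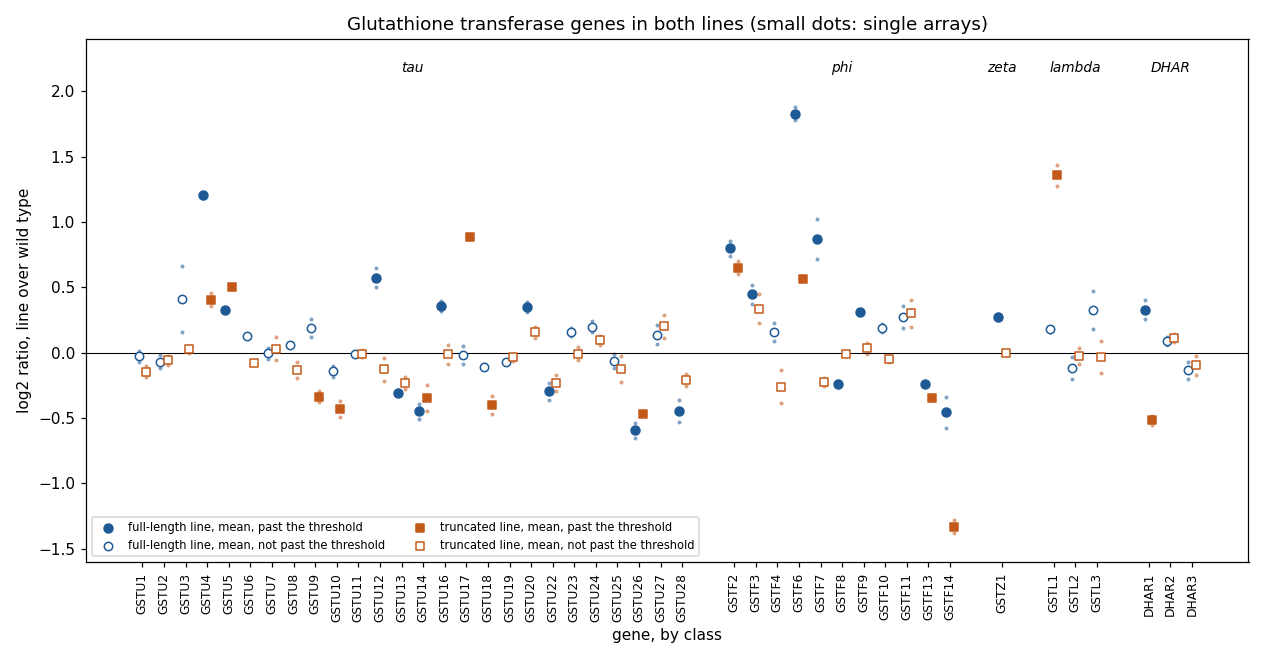
Log2 ratio of line over wild type for the 44 tested members, grouped by class along the horizontal axis. Large symbols are means of 2 arrays (circles full-length, squares truncated, filled where the adjusted p passed 0.05) and small dots are single arrays. GSTF6 stands highest in the full-length line at 1.83, and in the truncated line GSTL1 stands highest at 1.36 and GSTF14 lowest at -1.33.

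The phi class held the highest value of the family in the full-length line. GSTF6 (AT1G02930), an enzyme of camalexin synthesis that is also induced by salicylic acid and pathogens, had log2 ratios of 1.88 and 1.78 on the full-length arrays and 0.55 and 0.57 on the truncated arrays. The processed intensity in replicate 1 was 6066 in the full-length line against 1663 in wild type, and in replicate 2 it was 6567 against 1798. The corresponding truncated values were 2660 against 1815 and 2571 against 1702, so every line channel lay above every wild type channel while the wild type channels stayed close to each other. GSTF6 was thus 3.55-fold higher in the full-length line (1.83 ± 0.07, adjusted p = 0.00107) and 1.47-fold higher in the truncated line (0.56 ± 0.01, adjusted p = 0.00921). A second GSTF6 probe gave 1.75 and 0.66.

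GSTF7 (AT1G02920), the closest homologue of GSTF6 and its direct neighbour, had log2 ratios of 1.02 and 0.72 on the full-length arrays and -0.19 and -0.26 on the truncated arrays. The 2 groups did not overlap. GSTF7 was 1.83-fold higher in the full-length line (0.87 ± 0.21, adjusted p = 0.00688, or 0.52 with outlier-marked spots kept) and did not pass the threshold in the truncated line (-0.23 ± 0.04, adjusted p = 0.157). It was much dimmer than its neighbour: the processed intensity in the full-length line was 370.9 against 157.8 in wild type in replicate 1 and 350.5 against 187.0 in replicate 2. The truncated values were 130.7 against 164.0 and 123.9 against 167.7. Probe sequences were not used here, so signal that the probes of GSTF6 and GSTF7 could share was not separated.

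GSTF2 (AT4G02520), a GST that binds small ligands such as auxin-related and camalexin-type molecules, was higher in both lines. Its log2 ratios were 0.85 and 0.74 in the full-length line and 0.70 and 0.60 in the truncated line, which were 1.74-fold (0.80 ± 0.08, adjusted p = 0.00463) and 1.57-fold (0.65 ± 0.07, adjusted p = 0.00804). The other 3 GSTF2 probes were positive too but smaller, at 0.26, 0.36 and 0.52 in the full-length line and 0.28, 0.37 and 0.51 in the truncated line, and the gap of 0.54 between probes was the widest within any member (the mean over probes was 0.49 in the full-length line). GSTF3 (AT2G02930), a near-identical copy of GSTF2, rose in the full-length line (0.38 and 0.52; 0.45 ± 0.10, adjusted p = 0.0245), a call that was lost without replicate 2. In the truncated line it had 0.23 and 0.45 and narrowly missed the threshold (adjusted p = 0.0532). Signal shared between the GSTF2 and GSTF3 probes was not separated either.

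GSTF14 (AT1G49860) fell in both lines, and further in the truncated one. It had log2 ratios of -0.57 and -0.34 on the full-length arrays and -1.38 and -1.28 on the truncated arrays. GSTF14 was 2.51-fold lower in the truncated line (-1.33 ± 0.07, adjusted p = 0.00311), with processed intensities of 328.8 against 989.8 in wild type and 322.5 against 909.8. These intensities lay further apart than 2.51-fold, and the offset in the main processing pulls dim ratios towards 0. The full-length intensities lay between those of the truncated line and wild type, at 629.0 against 987.8 and 713.7 against 961.8 (1.37-fold lower, adjusted p = 0.0228, not called without replicate 1).

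The remaining phi genes moved less. GSTF13 was lower in both lines by a small amount, with -0.25 and -0.23 in the full-length line (adjusted p = 0.0462) and -0.34 and -0.35 in the truncated line (adjusted p = 0.0227), and lost each call when an array of that line was left out. The full-length value was -0.14 with outlier-marked spots kept, and the truncated value was -0.52 with Agilent's log ratios. GSTF8, an early gene of oxidative and auxin responses, had -0.26 and -0.22 in the full-length line (adjusted p = 0.0488; not called without either array) and -0.02 and -0.00 in the truncated line. GSTF9, linked to indole glucosinolate synthesis, was called higher in the full-length line at 0.32 and 0.30 (adjusted p = 0.0273), but the call was lost without either array and the sign turned to -0.075 with median centring. It had 0.07 and -0.01 in the truncated line. GSTF10 (0.19 ± 0.05 full-length, -0.05 ± 0.03 truncated), GSTF4 (0.16 ± 0.10 and -0.26 ± 0.18) and GSTF11, which acts in aliphatic glucosinolate synthesis (0.27 ± 0.12 and 0.30 ± 0.14), passed the threshold in neither line. In all, 5 of 11 tested phi genes rose and 3 fell in the full-length line (72.7% called, beside 15.5% of all features). For the truncated line 2 rose and 2 fell (36.4%, beside 13.2%). GSTF12, a phi gene outside the listed loci, is not in these counts and was higher in both lines (0.40 full-length, 1.25 truncated).

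**Figure D2:**
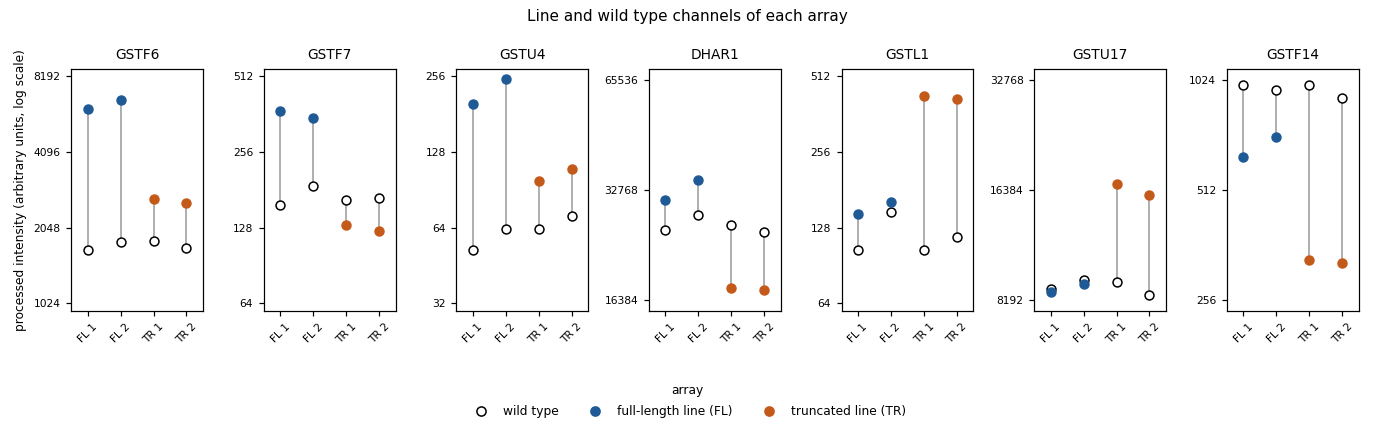
Processed intensity (arbitrary units, log scale) of 7 members in the line channel (filled) and the wild type channel (open) of each array, with FL 1 and FL 2 for the full-length and TR 1 and TR 2 for the truncated line. Each panel has its own scale, so levels are not compared between genes. For GSTF6 the line channel lies above wild type on all 4 arrays, for GSTF14 below it on all 4, and for DHAR1 above it on the full-length and below it on the truncated arrays.

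In the tau class GSTU4 (AT2G29460) had the highest value in the full-length line. Its log2 ratios were 1.22 and 1.19 there and 0.45 and 0.35 in the truncated line, so it was above wild type on all 4 arrays and the lines did not overlap. It was 2.30-fold higher in the full-length line (1.20 ± 0.03, adjusted p = 0.00265) and 1.32-fold higher in the truncated line (0.40 ± 0.07, adjusted p = 0.019, lost without truncated replicate 1). The probe was dim, with processed intensities of 197.9 against 52.23 in wild type and 249.7 against 63.1 on the full-length arrays, and 98.31 against 62.97 and 109.5 against 71.0 on the truncated arrays. Its full-length value depended on the background treatment: it was 1.95 with Agilent's log ratios, which are taken from these processed intensities, and 0.71 with outlier-marked spots kept, where the call was lost (adjusted p = 0.118). The offset added in the main processing pulls dim ratios towards 0.

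GSTU17 (AT1G10370), also named ERD9 and known as a negative regulator of drought and abscisic acid responses, rose in the truncated line. It had log2 ratios of 0.90 and 0.87 there and 0.05 and -0.09 in the full-length line. The processed intensity was 16950 against 9169 in wild type and 15860 against 8460 on the truncated arrays, whereas on the full-length arrays the channels nearly coincided, at 8609 against 8761 and 9052 against 9252. GSTU17 was 1.85-fold higher in the truncated line (0.88 ± 0.02, adjusted p = 0.00407), and the full-length value was -0.02 ± 0.10 (adjusted p = 0.872). Other GSTU17 probes gave 0.87 and 0.65 in the truncated line and -0.07 and -0.20 in the full-length line.

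GSTU12 (AT1G69920) had log2 ratios of 0.65 and 0.50 in the full-length line (0.57 ± 0.10, adjusted p = 0.012) and -0.04 and -0.22 in the truncated line (adjusted p = 0.314). It was near the detection limit, since wild type was well above background on 1 of 2 arrays in each line and the truncated line on 1 of 2. Having passed the filter only through the line in which it was bright, it supports no size of change: the full-length value ran from 0.29 (adjusted p = 0.217, outlier-marked spots kept) to 1.75 (Agilent's log ratios).

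GSTU5 (AT2G29450), an auxin-induced gene, was higher in both lines, with 0.31 and 0.34 in the full-length line (1.26-fold, adjusted p = 0.0218, not called without either array) and 0.49 and 0.51 in the truncated line (1.42-fold, adjusted p = 0.0104). The 2 arrays of a line were nearly equal for this gene. GSTU20, which interacts with the jasmonate-conjugating enzyme FIN219 and is linked to aliphatic glucosinolate synthesis, rose in the full-length line (0.31 and 0.39, adjusted p = 0.023) and had 0.11 and 0.20 in the truncated line (adjusted p = 0.159). GSTU16 also rose in the full-length line (0.40 and 0.32, adjusted p = 0.0273), although its other probe gave 0.07, and had 0.06 and -0.08 in the truncated line. The mean over GSTU16 probes was 0.21 and missed the threshold (adjusted p = 0.0522). The full-length calls of GSTU20 and GSTU16 were lost when either array was left out.

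Other tau genes fell. GSTU26 (AT1G17190) had log2 ratios of -0.65 and -0.54 in the full-length line (1.51-fold lower, -0.59 ± 0.08, adjusted p = 0.00707) and -0.47 and -0.47 in the truncated line (1.39-fold lower, adjusted p = 0.0142), and both calls held without any 1 array. GSTU14 was lower in both lines as well, at -0.39 and -0.50 in the full-length line (adjusted p = 0.0213) and -0.25 and -0.44 in the truncated line (adjusted p = 0.0441), with wider spread in the latter. These calls were lost without full-length replicate 2 and without either truncated array. With Agilent's log ratios the full-length values were -0.68 for GSTU14, not called (adjusted p = 0.0655), and -0.79 for GSTU28. GSTU28 (-0.36 and -0.53, adjusted p = 0.0186), GSTU13, which acts in indole glucosinolate metabolism (-0.29 and -0.32, adjusted p = 0.0303), and GSTU22 (-0.23 and -0.36, adjusted p = 0.0461) fell in the full-length line. Of these calls, that of GSTU28 was lost without replicate 2 and the others without either array. In the truncated line these genes were also below 0 but missed the threshold, at -0.21 ± 0.07, -0.23 ± 0.07 and -0.23 ± 0.09 (adjusted p = 0.117, 0.0653 and 0.0855).

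A further set of tau genes was lower in the truncated line. GSTU10 had -0.49 and -0.37 there (1.35-fold lower, adjusted p = 0.0192) and -0.19 and -0.10 in the full-length line (adjusted p = 0.191). GSTU18 had -0.33 and -0.47 (1.32-fold lower, adjusted p = 0.0219), a second probe gave -0.48, and the full-length values were -0.08 and -0.13 (adjusted p = 0.307). GSTU9 had -0.30 and -0.38 (1.26-fold lower, adjusted p = 0.0352) and 0.26 and 0.12 in the full-length line (adjusted p = 0.117), so the arrays of each line kept to 1 side of 0. The truncated call of GSTU10 was lost without replicate 1, that of GSTU18 without replicate 2 and that of GSTU9 without either.

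Several well-studied detoxification genes of the tau class were not called in either line. GSTU19, a safener-responsive gene with high activity on herbicides, had -0.07 ± 0.02 and -0.04 ± 0.04, full-length line first. Its other probes lay lower, at -0.24 and -0.17 in the full-length line and -0.14 and -0.12 in the truncated line. GSTU24 and GSTU25, which detoxify the explosive TNT, had 0.20 ± 0.06 (adjusted p = 0.0836) and -0.06 ± 0.07 in the full-length line and 0.09 ± 0.05 and -0.12 ± 0.14 in the truncated line. GSTU3 differed most between its arrays, with 0.66 and 0.16 in the full-length line (adjusted p = 0.0862). Wild type and the truncated line were not well above background for GSTU3 on any array. GSTU1, GSTU2, GSTU6, GSTU7, GSTU8, GSTU11, GSTU23 and GSTU27 were the other tau genes called in neither line, and their line means lay between -0.15 and 0.20. Over the tau class, 5 of 26 tested genes rose, GSTU12 included, and 5 fell in the full-length line (38.5% called, beside 15.5% of all features). The truncated line had 3 and 5 (30.8%, beside 13.2%).

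The smaller classes held the strongest rise in the truncated line. GSTL1 (AT5G02780), a lambda GST, had log2 ratios of 1.44 and 1.27 in the truncated line and 0.20 and 0.16 in the full-length line. Its processed intensity was 425.0 against 104.6 in wild type and 414.5 against 117.7 on the truncated arrays, and 144.5 against 104.3 and 161.5 against 147.4 on the full-length arrays. GSTL1 was 2.56-fold higher in the truncated line (1.36 ± 0.12, adjusted p = 0.00193), and the full-length value of 0.18 ± 0.03 did not pass the threshold (adjusted p = 0.134). The offset in the main processing pulls dim ratios towards 0, and the processed intensities on the truncated arrays lay further apart than 2.56-fold. GSTL2 had -0.12 ± 0.12 (full-length) and -0.02 ± 0.09 (truncated), and GSTL3 had 0.33 ± 0.20 (adjusted p = 0.0898) and -0.03 ± 0.17. Neither was called, while 2 of the 3 lambda genes had an unadjusted p below 0.05 in the full-length line.

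DHAR1 (AT1G19570), an abundant cytosolic dehydroascorbate reductase, lay on opposite sides of wild type in the 2 lines. The processed intensity was 30710 against 25460 in wild type and 34920 against 27880 on the full-length arrays, and 17660 against 26220 and 17450 against 25030 on the truncated arrays. Its log2 ratios were 0.26 and 0.40 in the full-length line (1.26-fold higher, adjusted p = 0.0309) and -0.55 and -0.48 in the truncated line (1.43-fold lower, -0.52 ± 0.05, adjusted p = 0.0132). The rise in the full-length line was lost without either array, and its sign turned to -0.016 with median centring, whereas the fall in the truncated line held without either array. DHAR2, the other cytosolic form, had 0.09 ± 0.04 and 0.11 ± 0.04, and the plastid form DHAR3 had -0.13 ± 0.09 and -0.10 ± 0.10. GSTZ1 (AT2G02390), the maleylacetoacetate isomerase of tyrosine breakdown, was higher in the full-length line at 0.25 and 0.29 (1.21-fold, adjusted p = 0.0351), but its other probe gave 0.07, the mean over probes was 0.17 (adjusted p = 0.0951), and the call was lost without either array. It had -0.01 and 0.02 in the truncated line.

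The direct comparison of the lines (truncated minus full-length) asks whether a gene differed between a line with the full factor and a line with a shortened one. Each form was 1 line and the transgene level was not measured, so the form, its level and the insertion site cannot be told apart. Of 44 members 2 were higher in the truncated line and 6 lower, or 18.2% called beside 3.12% of all features (0.972% higher and 2.15% lower), and 18 had an unadjusted p below 0.05. All 8 calls held when any 1 array was left out, but fewer held under other processing. With outlier-marked spots kept 5 were called (not GSTU4, GSTU12 and GSTF7). With normexp offset 0 there were 3 (GSTU4, GSTF6 and GSTL1), and 3 with Agilent's log ratios or the deposited table (GSTU4, GSTU17 and GSTF6). Without the filter on dim probes only GSTF6 was called, while calls over all features went from 701 to 86. With median centring 0 were called in limma (6 unadjusted).

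GSTL1 (1.18, SE 0.09, adjusted p = 0.011) and GSTU17 (0.90, SE 0.09, adjusted p = 0.0173) were higher in the truncated than in the full-length line. GSTF6 (-1.27, SE 0.08, adjusted p = 0.00745), GSTF7 (-1.10, SE 0.12, adjusted p = 0.0232) and GSTU4 (-0.80, SE 0.08, adjusted p = 0.0205) were lower, as were GSTF14 (-0.87, SE 0.11, adjusted p = 0.0298), DHAR1 (-0.85, SE 0.09, adjusted p = 0.021) and GSTU12 (-0.70, SE 0.10, adjusted p = 0.041). The GSTU12 difference, for a gene that entered the test through its bright line, ran from -0.42 to -2.03 and was lost in 7 of 13 other settings. For each of these 8 genes the 2 truncated arrays did not overlap the 2 full-length arrays. That follows from picking the genes by this contrast on the same arrays, so it adds no support. GSTU9, which had opposite signs in the lines, missed the threshold (-0.52, SE 0.09, adjusted p = 0.057).

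For several genes called in both lines the difference did not pass the threshold. It was -0.15 (SE 0.09, adjusted p = 0.442) for GSTF2, 0.12 (SE 0.09, adjusted p = 0.496) for GSTU26, 0.10 (SE 0.11, adjusted p = 0.655) for GSTU14 and -0.10 (SE 0.08, adjusted p = 0.526) for GSTF13. For GSTU5 it was 0.17 (SE 0.08, adjusted p = 0.305). A difference that misses the threshold does not show that the lines act alike.

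**Figure D3:**
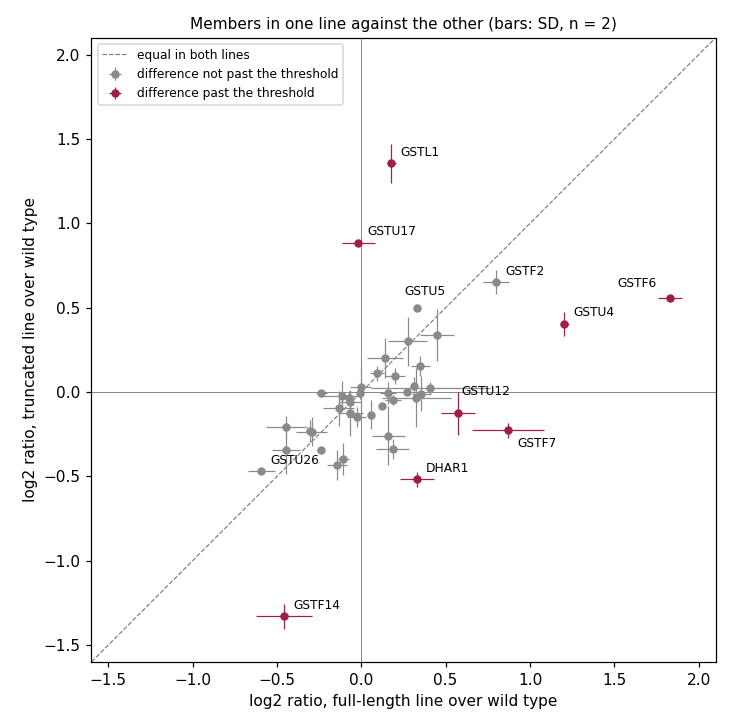
Mean log2 ratio over wild type of each tested member in the full-length line (horizontal) and the truncated line (vertical), with SD bars over 2 arrays; red points differ between lines past the threshold and the dashed line marks equal values. GSTL1 and GSTU17 lie above the dashed line, GSTF6, GSTF7, GSTU4, GSTU12, DHAR1 and GSTF14 below it, and GSTF2, GSTU5 and GSTU26 near it.

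Many members lie side by side in the genome. In the gene order of the TAIR10.1 RefSeq annotation, 31 of the 47 members fall into 10 groups in which at most 3 other protein-coding genes lie between members, the longest with 7 members. Within several groups some genes were called and others were not, though neighbours were not tested against each other. GSTF7 and GSTF6, direct neighbours, were both higher in the full-length line, while GSTF4, at the far end of that group, had 0.16 ± 0.10. In the row from GSTU7 to GSTU1, GSTU4 and GSTU5 were called in both lines and the other 5 members in neither. GSTU17 and GSTU18, also direct neighbours, went opposite ways in the truncated line, at 0.88 ± 0.02 and -0.40 ± 0.10.

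Similar contrasts held elsewhere. GSTU26 was lower in both lines while its neighbours GSTU24 and GSTU25 were called in neither. GSTU20 rose and GSTU22 fell in the full-length line, with GSTU19 and GSTU23 not called. GSTL1 was higher in the truncated line by 1.36 ± 0.12, beside -0.03 ± 0.17 for its neighbour GSTL3. Other groups held no such contrast. GSTU13 and GSTU14, with 1 gene between them, were both lower in the full-length line. GSTF9 and GSTF10 had 0.31 and 0.19 there, with only GSTF9 called.

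**Figure D4:**
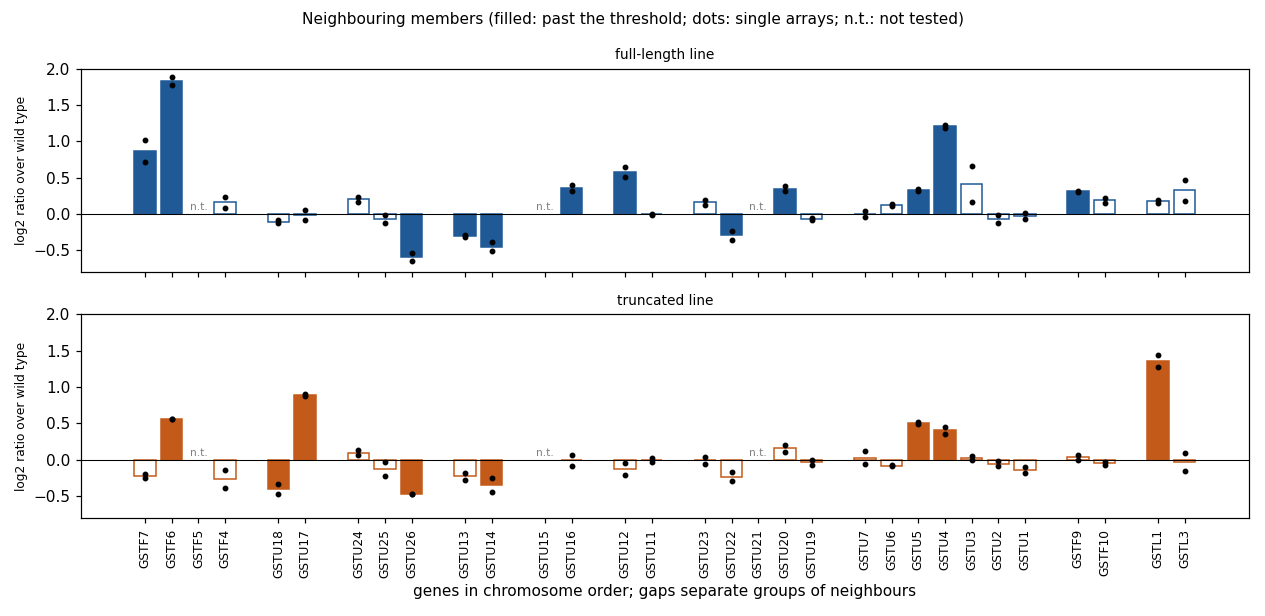
Mean log2 ratio over wild type (bars, with single arrays as dots) of the 31 members that lie in groups of neighbours, in chromosome order, for the full-length line (upper) and the truncated line (lower). Filled bars passed the threshold, n.t. marks the 3 members not tested, and gaps separate the 10 groups. GSTU17 rises beside a lower GSTU18 in the truncated line, and GSTF6 and GSTF7 rise together in the full-length line.

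Of 12 tested genes that make, recycle or break down glutathione, 2 were higher and 0 lower in each line (16.7%, beside 15.5% and 13.2% of all features), with medians of 0.07 and -0.04. GSH1, the first and limiting enzyme of glutathione synthesis, had log2 ratios of 0.79 and 0.60 in the full-length line (1.62-fold higher, 0.70 ± 0.14, adjusted p = 0.00913) and 0.26 and 0.08 in the truncated line (adjusted p = 0.22). Its other 3 probes gave 0.25, 0.37 and 0.39 in the full-length line, and the mean over probes was 0.43. GR1, the cytosolic glutathione reductase, was higher in both lines, with 0.49 and 0.51 (adjusted p = 0.00861) and 0.44 and 0.46 (adjusted p = 0.0128). The other GR1 probe gave smaller means of 0.27 and 0.36. AT5G26220, which encodes a glutathione-degrading enzyme, was higher in the truncated line (0.32 ± 0.05, adjusted p = 0.0343). Among 7 glutathione peroxidase genes GPX6 (0.35 ± 0.10) and GPX7 (0.36 ± 0.01) were higher and GPX1 lower (-0.29 ± 0.09) in the full-length line, and GPX7 was higher in the truncated line (0.39 ± 0.03). That was 42.9% and 14.3% called, beside 15.5% and 13.2% of all features. Other full-length probe values were 0.16 for GPX6 and -0.50, -0.45 and -0.39 for GPX1.

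The list of ABCC transporters held only ABCC1 to ABCC5, which include vacuolar pumps for glutathione conjugates. ABCC genes outside this list were not examined. All 5 listed genes were called higher in the full-length line, and 3 of 5 in the truncated line, with a median of 0.34 in each. Over all features 9.41% and 7.09% were called higher. ABCC3 stood highest, with 0.91 and 0.90 in the full-length line (1.87-fold, adjusted p = 0.003) and 0.60 and 0.61 in the truncated line (1.52-fold, adjusted p = 0.00659). Its other probe gave 0.43 and 0.25. ABCC2, a pump for glutathione conjugates, was higher by 0.34 ± 0.04 (adjusted p = 0.0259) and 0.55 ± 0.08 (adjusted p = 0.0108). ABCC4 (0.41 ± 0.14), ABCC5, a phytate transporter (0.32 ± 0.14), and ABCC1 (0.28 ± 0.04) were the other full-length calls, and ABCC5 the third truncated call (0.34 ± 0.02). With outlier-marked spots kept the full-length calls of ABCC4 (0.26) and ABCC5 (0.19) were lost.

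Of 7 tested GST genes outside the 47, GSTF12 was called in each line (14.3%, beside 15.5% and 13.2% of all features). GSTF12, also named TT19, is needed to deposit anthocyanins in the vacuole, and it was higher by 0.40 ± 0.16 in the full-length line (adjusted p = 0.0289) and 1.25 ± 0.04 in the truncated line (adjusted p = 0.00315), with a difference of 0.86 (SE 0.11, adjusted p = 0.0279). Its other probe gave 0.35 and 0.51, and the mean over probes put the difference at 0.51. A list of regulators of detoxification genes held the TGA factors AHBP-1B (TGA2), OBF5 (TGA5) and TGA6, their partner SCL14, and the NAC factors NAC032 and NAC102. In limma 0 of these 6 were called in either line (1 with an unadjusted p below 0.05 for the full-length line and 0 for the truncated one). With 6 genes and the shares of all features above, few calls or none could arise in any such list. Their means ranged from -0.23 to 0.19 in the full-length line and from -0.14 to 0.13 in the truncated line.

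Other genes of the xenobiotic response were mixed, with 2 of 10 risen and 1 fallen in the full-length line, and 1 of each in the truncated line. That was 30% and 20% called, beside 15.5% and 13.2% of all features. ChlAKR, a chloroplast aldo-keto reductase that removes reactive carbonyls, had 1.29 and 1.37 in the full-length line (2.52-fold higher, adjusted p = 0.00265) and 0.23 and 0.37 in the truncated line (adjusted p = 0.0437). The glucosyltransferase genes UGT74E2 (0.35 ± 0.02) and UGT73B4 (-0.33 ± 0.01) were the other full-length calls, and OPR2, an oxophytodienoate reductase gene, fell in the truncated line (-0.29 ± 0.03).

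The camalexin list shares its pathway with GSTF6. It held 2 higher and 1 lower of 6 tested genes in the full-length line (50%, beside 15.5% of all features). PAD3, the last enzyme of the pathway, had 2.19 and 1.73 there (1.96 ± 0.33, adjusted p = 0.00318) and 0.37 and 0.17 in the truncated line (adjusted p = 0.217). Its full-length value was 3.18 with Agilent's log ratios and 1.07, not called, with outlier-marked spots kept (adjusted p = 0.0902). CYP79B2, which makes the indole precursor, was higher as well (0.61 ± 0.08, adjusted p = 0.00957), whereas WRKY33, the factor known to activate PAD3, was lower (-0.97 ± 0.05, adjusted p = 0.003). In the truncated line CYP79B3, a partner of CYP79B2, was the 1 gene called (16.7%, beside 13.2% of all features). It was lower (-0.43 ± 0.02, adjusted p = 0.0165). Of 17 calls among genes of these lists in the full-length line, 9 were lost without replicate 1 and 9 without replicate 2, and of 10 in the truncated line, 6 and 5 were lost.

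**Figure D5:**
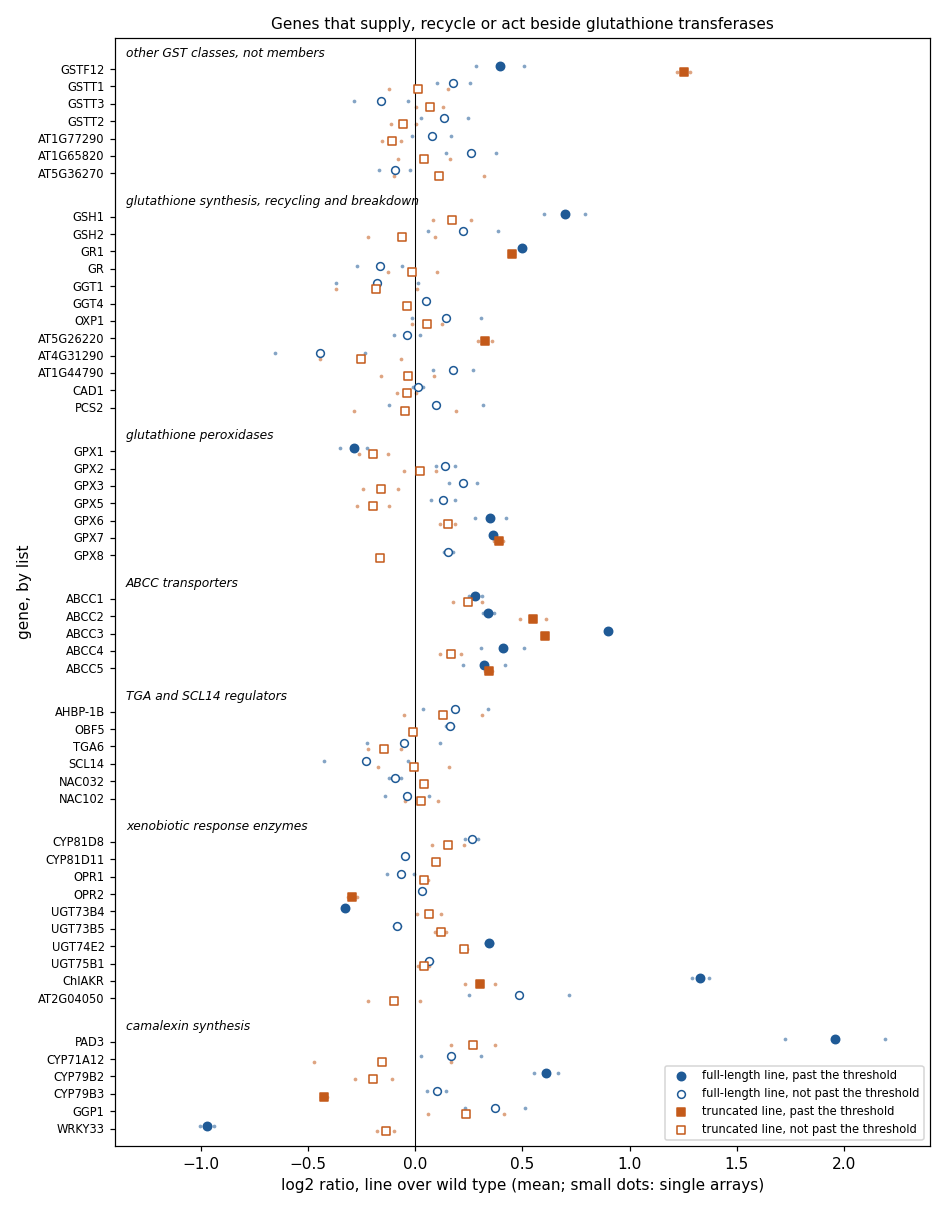
Log2 ratio of line over wild type for genes of 7 lists, with the mean of 2 arrays as large symbols (circles full-length, squares truncated, filled where past the threshold) and single arrays as small dots. All 5 listed ABCC transporters lie to the right of 0 in both lines. The regulators under the TGA and SCL14 heading, NAC032 and NAC102 included, hold no filled symbol. PAD3, ChlAKR and GSTF12 lie farthest to the right. GSTF12 is a phi gene, though it is drawn under the heading of other GST classes.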

How the data were processed

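RNA of each line and of wild type was hybridised together on Agilent 2-colour arrays (4 arrays, 200 ng RNA per labelling). Scans were read by the authors in Feature Extraction 10.7.3.1 (Agilent), as the file headers state. The deposited files give median and processed intensity per channel, flags, and a log10 ratio of Cy5 over Cy3. A deposited table gives log2 ratios of line over wild type. Mean signals were not used here, so medians took their place.

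Outlier-marked spots were left out (20 to 50 per array), background was corrected by normexp (offset 50), ratios were normalized by loess and turned to line over wild type. Genes were tested where the line was well above background on both of its arrays, or wild type on all 4. limma 3.58.1 in R 4.3.3 fitted both lines together (2 residual and 3.18 prior degrees of freedom).

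Members were named by locus, all 47 matched in the RefSeq gene table. Per-array values are given for each member called in a line or between lines, and for those with a mean of at least 0.5. From each list up to 4 called genes per line are named by size. ABCC1 was added after its value was seen. Members and lists were chosen with earlier results of these data known. Alternatives changed the outlier spots, background, normalization, filter, probe choice, arrays and replicate block. No sequences were used.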

Additional observations from a re-analysis of the deposited data

Results flagged for a closer look

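In the limma contrast truncated minus full-length (adjusted over all features, threshold 0.05), 701 of 22438 features were called (3.12%). Only the tested members and listed genes were looked at here, and 14 of them differed between the lines by this test of the difference itself. Among GST genes these were GSTF6 (-1.27), GSTF7 (-1.10), GSTF14 (-0.87), DHAR1 (-0.85), GSTU4 (-0.80) and GSTU12 (-0.70), which were lower in the truncated line, and GSTL1 (1.18), GSTU17 (0.90) and GSTF12 (0.86), which were higher. In the other lists PAD3 (-1.69), ChlAKR (-1.03), CYP79B2 (-0.81) and CYP79B3 (-0.525) were lower and WRKY33 (0.83) was higher in the truncated line. DHAR1 had a positive log2 ratio on both full-length arrays and a negative one on both truncated arrays, but its full-length sign turned with median centring (-0.016). The call of CYP79B3 was lost when any 1 array was left out. Calls kept in such fits add no support, since the spread of the line left with 1 array is taken from the other line. Of the 6 differences outside the 47 loci, 2 were kept with outlier-marked spots in the fit, 2 with normexp offset 0, 2 with Agilent's log ratios or the deposited table, and 0 with median centring or without the filter on dim probes. The PAD3 difference was -0.80 with outlier-marked spots kept and -2.63 with Agilent's log ratios, and that of ChlAKR was -0.66 with outlier-marked spots kept.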

How the results depend on the processing

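The count of GST genes called was 20 in the full-length line, 14 in the truncated line and 8 between lines. With outlier-marked spots kept these were 7, 12 and 5. Without the filter on dim probes they were 6, 7 and 1. With normexp offset 0, Agilent's own log ratios or the deposited table, the count between lines was 3, and the line counts stayed within 1.5 times. Median centring gave 0, 1 (1 higher, 0 lower) and 0, and over all features 8, 41 and 0. It left all-feature medians of -0.25, 0.07, -0.19 and 0.15 on the 4 arrays, against at most 0.02 with loess, and turned the full-length values of GSTF9 and DHAR1 to -0.075 and -0.016. Leaving out 1 array gave 9 to 21, 9 to 16 and 8 to 9. Such fits leave 1 array in a line, assumed to vary like the other line. No background subtraction and the mean over probes moved no count by over 1.5 times.

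The replicate block, which is also dye orientation, raised the counts to 35, 29 and 24. It raised the calls over all features by a larger factor in each of these comparisons. Most of the 22438 features were then called in each line, against 15.5% and 13.2% in the main processing. The higher counts are therefore not particular to GST genes. Deviations of same-numbered arrays correlated (0.775), but with only 2 numbers this is a hint from the data. A slide block was not run, since all arrays share 1 slide. Among dim probes, GSTU12 and GSTU3 were limited by signal over background.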
